A study of Mus musculus with 4 samples.

Results

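Expression of the GIMAP family (GTPases of immunity-associated proteins) was examined in stimulated CD4+ T cells from WT and R111A mice. The family was taken as Gimap1, Gimap3, Gimap4, Gimap5, Gimap6, Gimap7, Gimap8 and Gimap9, which were found by gene symbol as 8 of the 16142 genes in the expression table. All 8 passed a filter at a mean of 1 FPKM, as did 9831 genes in total. FPKM values are reads scaled by transcript length and library size, so levels of different genes can be compared.

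GIMAP proteins are GTP-binding proteins found mainly in lymphocytes, where several members sit on membranes of organelles such as the lysosome and the endoplasmic reticulum and influence how long T and B cells survive. Mice and rats that lack functional Gimap5 lose most of their peripheral T cells. In mouse the genes lie side by side in one cluster.

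There were 2 WT libraries, from B6 mice, and 2 R111A libraries, from Cd4CreERT2 LSL-R111A fl/fl mice on the C57BL/6 background. R111A is a form of Regnase-1, the RNA-degrading protein encoded by Zc3h12a, that the MALT1 protease does not cleave. In R111A mice a CAG promoter in the Rosa26 locus drives this mutant together with EGFP once Cre, active in CD4-expressing cells after tamoxifen, has removed a STOP cassette. Tamoxifen was injected i.p. at 75 mg/kg for 5 days. WT mice were taken as treated too, as the paper gives treated WT B6 mice as controls of sorted T cells in its in vitro assays, although the labels of these libraries can be read either way. As labelled, WT mice carried neither Cre nor EGFP, so the effects of these and those of R111A cannot be told apart. The methods give mice of both sexes, 6 to 12 weeks of age, for the study's experiments, and a gate on GFP-positive cells where a mouse carries a GFP reporter. CD4+ T cells from the spleen were FACS sorted in both groups and then stimulated for 12 h with anti-CD3 (5 µg/mL) and anti-CD28 (1 µg/mL). The libraries of a group are not stated to come from separate mice, so p-values measure only the spread between these samples, which may be technical.

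The number of reads behind an FPKM value was not known. Among values of 0.1 to 0.6 FPKM, where single reads show as steps, WT replicate 1 was estimated to be 1.01 times as deep as WT replicate 2, 1.04 times as deep as R111A replicate 1 and 1.17 times as deep as R111A replicate 2. The sum of all FPKM values was smaller in the WT libraries (801475 in replicate 1, 836143 in replicate 2) than in the R111A libraries (1053551 in replicate 1, 1012215 in replicate 2). The 84 genes with symbols of cytosolic ribosomal proteins, a group chosen after its values were seen, held 36.8% and 38.4% of that sum in the WT libraries. They held 53.4% and 51.7% in the R111A libraries. Because the sums differ, each change below was also computed after rescaling every library to the same sum (TPM).

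CD4+ T cell identity was read from 12 markers of CD4+ T cells, all of which were detected. By the adjusted p 2 were higher and 4 lower (0 and 9 with TPM), where 21.2% and 32.1% of all genes were (13.6% and 51.8% with TPM). With 1 library left out 0 to 2 were higher and 2 to 7 lower, and without WT replicate 1 only Cd3g and Cd4 passed, both lower. Their most abundant gene over the 4 libraries together was Lat, an adaptor of the T cell receptor, at 413, 436, 580.1 and 583 FPKM in WT replicates 1 and 2 and R111A replicates 1 and 2, whereas Cd3g was above it in both WT libraries, at 454 and 465 FPKM. The summed levels of all 12 in the same order were 3114, 3150.4, 2959 and 2733 FPKM. Cd4 itself was at 158 and 131 FPKM in the WT libraries against 70.7 and 51.4 FPKM in R111A, with a log2 fold change of -1.24 (SE 0.18, adjusted p = 0.00057). Of 2 markers of CD8+ T cells 1 was tested and was lower, Cd8b1, and both summed to 7.31, 6.76, 3.88 and 4.46 FPKM in the same order. Cd8a stayed at or under 0.2 FPKM in every library, whereas Cd8b1 was at 7.21 and 6.56 FPKM in the WT libraries against 3.86 and 4.39 FPKM in R111A, a call lost without WT replicate 1.

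Zc3h12a stood far higher in R111A, at 196 and 131 FPKM, than in WT, at 17.0 and 15.7 FPKM (log2 fold change 3.22, SE 0.19). The transgene holds the coding sequence of Zc3h12a, so its reads and those of the endogenous gene could not be told apart.

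GIMAP genes differed between the groups in both directions, and the direction of Gimap1 turned when values were rescaled to TPM. Of the 8 members, 2 (Gimap4 and Gimap6) were called higher in R111A, by at least 2-fold with an adjusted p below 0.05, beside 838 of 9831 genes (8.52%). By limma 0 members were called lower, beside 820 genes (8.34%), and 1 member was lower at an unadjusted p under 0.05, Gimap7. By the adjusted p alone, 5 members were higher, Gimap4, Gimap5, Gimap6, Gimap8 and Gimap9, beside 2088 genes (21.2%). Gimap7 was the 1 member lower by that rule, beside 3152 genes (32.1%). In FPKM both R111A libraries stood above both WT libraries for 6 members, against 32.0% of all genes, and below both for 2 members, against 46.3%, with Gimap1 among the 6 in spite of its turn with TPM. The median log2 fold change was 0.53 over the members and -0.12 over all genes tested. In such bulk samples, fewer cells that express a gene and less of its RNA per cell cannot be told apart.

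These calls depended on the scaling. With TPM the median over all genes moved from -0.12 to -0.42, the calls over all genes moved from 838 higher and 820 lower to 583 higher (5.93%) and 1749 lower (17.8%), and the members' median moved to 0.20. Then 0 members were called higher by limma, although 2 were higher at an unadjusted p under 0.05, and 1 was called lower (Gimap7). By the adjusted p alone 2 members were then higher, Gimap4 and Gimap6, beside 1335 genes (13.6%), and 2 were lower, Gimap3 and Gimap7, beside 5096 genes (51.8%). With median-of-ratios scaling, which sets the typical gene equal between libraries, the median over all genes was 0.01, with 975 genes called higher and 612 lower, and the members' median was 0.67. TPM and median-of-ratios scaling multiply each library by one factor, so differences between a member and the median gene are nearly fixed under them. Quantile normalization can move such differences. With it Gimap6 stood 1.32 above the median gene on the log2 scale (1.24 in FPKM) and Gimap3 stood at -0.02 (-0.16 in FPKM). With 1 library left out the members' median ran from 0.43 to 0.64. Gimap5 was at 0.63 without WT replicate 1 and at 0.65 without WT replicate 2, against 0.64 with all 4 libraries.

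**Figure D1:**
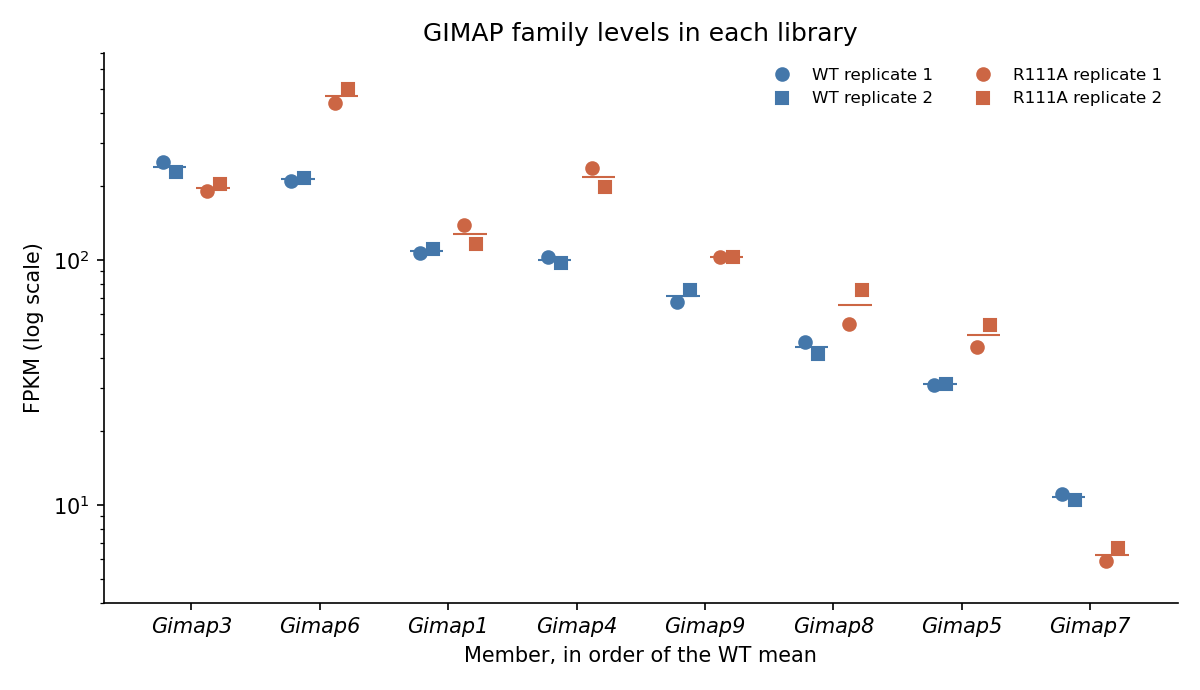
FPKM of each member (log axis) in WT (blue) and R111A (red) libraries, with circles for replicate 1, squares for replicate 2 and a line at each group mean of 2 libraries. Gimap6 and Gimap4 lay higher in both R111A libraries, while Gimap3 and Gimap7 lay lower in both, and with TPM Gimap1 turned from 0.23 to -0.10 on the log2 scale.

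Promoter sequences are shown for the members at both ends of the change, Gimap4 and Gimap6 (called higher), Gimap7 (lower by the adjusted p) and Gimap3 (lower in both R111A libraries, not past the threshold). They come from RefSeq (GRCm38.p6), which held 1 promoter for each member and 2 for Gimap8, 9 in all. They run 5′ to 3′ from 250 bases before an annotated start to 50 bases after it. For Gimap8 and Gimap9 the starts used differ from the start of the gene given below. Capitals mark matches, on either strand, to GGAAGT (the core of ETS sites), TGTGGT (RUNX), CCACCC (a KLF box), GTAAACA (FOXO), CTTTGAT (TCF/LEF), CACGTG (an E-box) and TGANTCA (AP-1).
Gimap4 (chr6:48684328-48684627, plus strand): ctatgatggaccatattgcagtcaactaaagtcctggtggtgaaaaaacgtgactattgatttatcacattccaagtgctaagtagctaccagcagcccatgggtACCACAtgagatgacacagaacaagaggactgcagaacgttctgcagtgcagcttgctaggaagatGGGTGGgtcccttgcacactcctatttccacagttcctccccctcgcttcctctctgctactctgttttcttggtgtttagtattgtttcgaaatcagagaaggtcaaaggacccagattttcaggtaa
Gimap6 (chr6:48708195-48708494, minus strand): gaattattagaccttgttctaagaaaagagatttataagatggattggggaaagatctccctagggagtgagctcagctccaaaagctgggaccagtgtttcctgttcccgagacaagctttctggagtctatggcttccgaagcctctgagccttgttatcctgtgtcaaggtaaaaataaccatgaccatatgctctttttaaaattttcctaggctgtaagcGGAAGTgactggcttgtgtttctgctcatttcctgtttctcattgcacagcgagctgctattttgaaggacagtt
Gimap7 (chr6:48718371-48718670, plus strand): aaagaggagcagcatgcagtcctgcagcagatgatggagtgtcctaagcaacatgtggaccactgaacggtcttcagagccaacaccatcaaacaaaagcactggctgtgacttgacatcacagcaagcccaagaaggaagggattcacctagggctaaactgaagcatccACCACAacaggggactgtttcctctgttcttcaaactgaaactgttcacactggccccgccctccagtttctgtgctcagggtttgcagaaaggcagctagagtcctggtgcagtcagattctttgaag
Gimap3 (chr6:48770802-48771101, minus strand): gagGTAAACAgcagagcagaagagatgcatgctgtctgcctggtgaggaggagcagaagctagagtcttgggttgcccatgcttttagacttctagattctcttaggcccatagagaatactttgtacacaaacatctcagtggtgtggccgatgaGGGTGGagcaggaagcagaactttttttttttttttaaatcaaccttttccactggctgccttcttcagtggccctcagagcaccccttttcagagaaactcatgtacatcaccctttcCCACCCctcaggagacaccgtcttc
No letters of these matches overlapped. The motifs were chosen after the expression values were seen, and a match is a description of the letters in this window.

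Gimap4 held 1 RUNX match and 1 KLF match, Gimap6 held 1 ETS match, Gimap7 held 1 RUNX match, and Gimap3 held 2 KLF matches and 1 FOXO match. Gimap4 and Gimap6, which changed by nearly the same factor, shared none of these motifs. Over all members, GGAAGT was found for 4, Gimap1, Gimap5, Gimap6 and Gimap9, and in 23.8% of all 32851 promoters of this length. TGTGGT was found for 3 members, Gimap1, Gimap4 and Gimap7, and in 16.8% of all promoters. CCACCC was found for 5 members, Gimap3, Gimap4, Gimap5, Gimap9 and, in 1 of its 2 promoters, Gimap8, and in 31.5% of all promoters. The other promoter of Gimap8 held none of the 7 motifs. GTAAACA was found for Gimap3 and in 3.65% of all promoters. CTTTGAT (3.73% of all promoters), CACGTG (7.15%) and TGANTCA (7.81%) were found for 0 members.

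Gimap6, a member that binds GABARAP-type proteins and takes part in autophagy, was the most abundant GIMAP gene in R111A cells. It is gene 231931, on the minus strand at chr6:48701583-48708244. Its level was 211 and 216 FPKM in WT replicates 1 and 2 and 436 and 501 FPKM in R111A replicates 1 and 2. The WT libraries were close to each other, both R111A libraries lay well above them, and the groups did not overlap. The group means were 214 ± 3.83 and 469 ± 45.4 FPKM (SD, n = 2 each), a ratio of 2.19. On the log2(FPKM + 1) scale the difference was 1.13 (SE 0.13, 95% interval 0.83 to 1.42, adjusted p = 0.00017), larger than for 92.9% of genes tested. With TPM the log2 fold change was 0.79, under the 2-fold threshold, and the adjusted p lay between 1.6e-05 and 0.0045 over the alternatives.

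Gimap4, whose product has been linked to the pace of T cell death, was at 103 and 96.9 FPKM in the WT libraries against 236 and 199 FPKM in R111A. Both R111A libraries were higher than both WT libraries, R111A replicate 1 more so than replicate 2. The gene (107526) lies on the plus strand at chr6:48684578-48692062, next to Gimap6. Its means were 99.9 ± 4.34 FPKM in WT and 218 ± 26.3 FPKM in R111A (SD, n = 2 each), and the log2 fold change was 1.11 (SE 0.14, 95% interval 0.80 to 1.42, adjusted p = 0.00025). It was no longer 2-fold without R111A replicate 1, at 0.99, or with TPM, at 0.78, and the adjusted p lay between 4.1e-05 and 0.0056 over the alternatives.

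Gimap5 and Gimap3 are close relatives that both support the survival of T cells, Gimap5 from the lysosomal membrane. Gimap5 (gene 317757, plus strand, chr6:48746197-48754200) was at 31.0 and 31.2 FPKM in the WT libraries against 44.4 and 54.2 FPKM in R111A. The WT libraries were almost equal and both R111A libraries lay above them. The log2 fold change was 0.64 (SE 0.14, adjusted p = 0.0057), but the adjusted p was 0.096 with TPM, 0.060 without WT replicate 1 and 0.055 without WT replicate 2, against 0.0015 at the lowest of the alternatives.

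Gimap3 (gene 83408, minus strand, chr6:48764464-48770851) was the most abundant member in WT cells, at 251 and 229 FPKM. In R111A it was at 192 and 204 FPKM. Both R111A libraries were below both WT libraries, by less than for Gimap7. The log2 fold change of -0.28 (SE 0.12, 95% interval -0.56 to 0.01) did not pass the threshold (adjusted p = 0.091). With TPM it was -0.61 (adjusted p = 0.0017), and without R111A replicate 2 it was -0.32 (adjusted p = 0.036); with quantile normalization the adjusted p was 0.72, the highest of the alternatives. Of all stretches of 50 bases in the longest coding transcript, 9.06% for Gimap3 and 9.98% for Gimap5 occurred in the other gene, so some reads could have been assigned to either. For stretches of 100 bases these shares were 2.0% and 2.21%, and the other 6 members shared 0% of either length with any member.

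Gimap1, which T and B cells need to persist as mature cells, was at 106 and 110.7 FPKM in the WT libraries against 139.7 and 116 FPKM in R111A. R111A replicate 1 stood apart, and R111A replicate 2 was only slightly above the WT libraries. The gene (16205) lies on the plus strand at chr6:48739047-48743795. The log2 fold change was 0.23 (SE 0.14, 95% interval -0.09 to 0.54, adjusted p = 0.19) and turned to -0.10 with TPM (adjusted p = 0.53). With quantile normalization it was 0.45 (adjusted p = 0.024), and without R111A replicate 2 it was 0.36 (adjusted p = 0.016). The highest adjusted p of the alternatives was 0.59, without WT replicate 1. The log2 fold change was 0.10 without R111A replicate 1.

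Gimap7, a GTPase whose activity depends on pairing of the protein, was the least abundant member in both groups. It (gene 231932, plus strand, chr6:48718621-48724636) was at 11.1 and 10.5 FPKM in the WT libraries against 5.91 and 6.65 FPKM in R111A. Both R111A libraries were well below both WT libraries, opposite in direction to Gimap6 next to it. The log2 fold change was -0.70 (SE 0.14, 95% interval -1.02 to -0.38, adjusted p = 0.0034). With TPM it was -1.0 (adjusted p = 0.00016, the lowest of the alternatives) and without WT replicate 1 it was -0.67 (adjusted p = 0.058, the highest). A further annotated gene on the plus strand, Gm28053 (chr6:48718607-48752644 in GENCODE M21, GRCm38), overlaps Gimap7, Gimap1 and Gimap5, and Gimap1os (chr6:48738346-48741444) lies antisense to Gimap1. Neither was in the table, and the counting is not stated to use strand, so their reads may be included in those of these 3 members.

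Gimap8, the member with several GTP-binding domains in one protein, was at 46.5 and 41.5 FPKM in the WT libraries against 54.9 and 75.7 FPKM in R111A. The R111A libraries were both higher, yet they differed from each other by 0.46 on the log2 scale, the widest gap between replicates in the family. The gene (243374) lies on the plus strand at chr6:48647186-48660875. Its log2 fold change was 0.54 (SE 0.17, adjusted p = 0.026). The adjusted p was 0.30 with TPM, 0.085 with no filter on low genes, 0.061 without WT replicate 1 and 0.18 without WT replicate 2, against 0.0028 at the lowest of the alternatives. Without R111A replicate 2 the log2 fold change was 0.31.

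Gimap9 (gene 317758, plus strand, chr6:48676121-48679116) was at 67.6 and 75.2 FPKM in the WT libraries against 103 and 102 FPKM in R111A. Here the R111A libraries were nearly equal and both lay above the WT libraries. The log2 fold change was 0.52 (SE 0.13, adjusted p = 0.0084). The adjusted p was 0.23 with TPM, 0.18 without WT replicate 1 and 0.063 without WT replicate 2, against 0.0018 at the lowest of the alternatives.

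**Figure D2:**
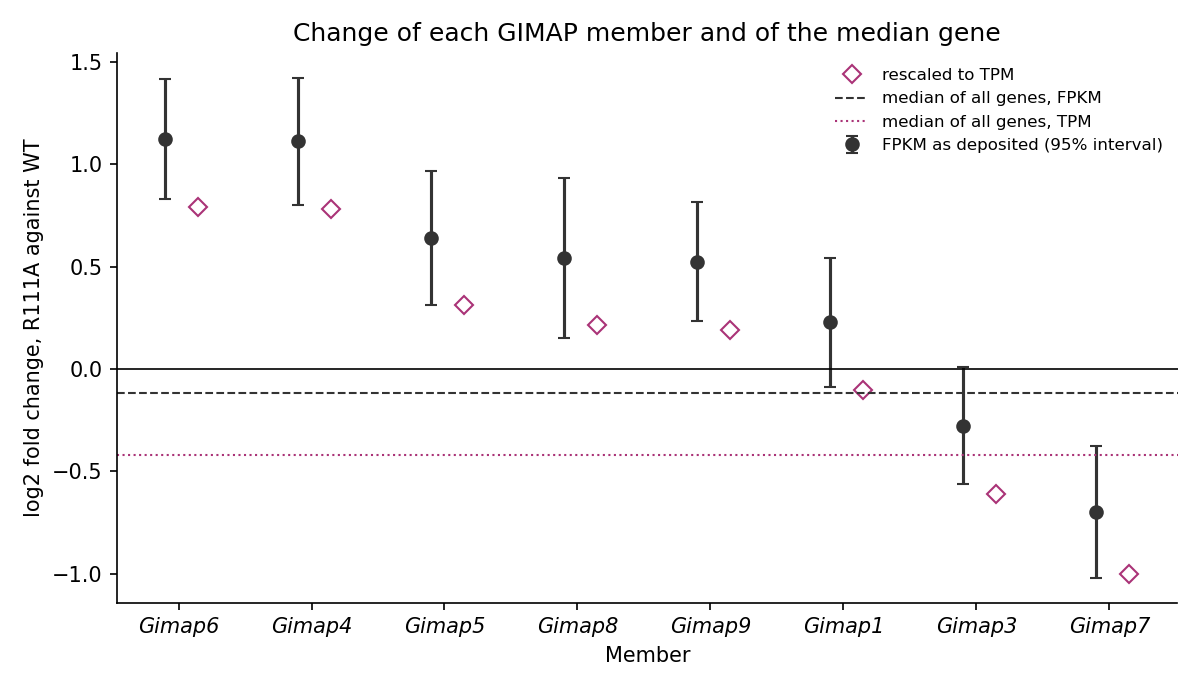
log2 fold change of each member in R111A against WT, with points and bars for the estimate and its 95% interval from FPKM and open diamonds for TPM, and with lines at 0 and at the median gene on each scale. Gimap6 and Gimap4 lay at 1.13 and 1.11 in FPKM and at 0.79 and 0.78 in TPM, where Gimap1 turned to -0.10, and both scales placed Gimap3 and Gimap7 lowest.

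Replicates lay further apart in R111A. Among the 6147 genes with a mean level within the range of the members, the median absolute difference between replicates was 0.09 on the log2 scale in WT and 0.22 in R111A. Gimap6 differed by 0.04 between the WT libraries and by 0.20 between the R111A libraries. Gimap9, at 0.15 in WT and 0.01 in R111A, and Gimap3, at 0.13 in WT and 0.09 in R111A, went the other way.

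The order of levels changed at the top of the family. In WT it ran Gimap3, Gimap6, Gimap1, Gimap4, Gimap9, Gimap8, Gimap5 and Gimap7, and no neighbours in this order overlapped in their libraries, although Gimap1 and Gimap4 were close. In R111A it ran Gimap6, Gimap4, Gimap3, Gimap1, Gimap9, Gimap8, Gimap5 and Gimap7. There Gimap4 and Gimap3 overlapped, since the lower Gimap4 value (199 FPKM) lay under the higher Gimap3 value (204 FPKM). Gimap9, Gimap8, Gimap5 and Gimap7 kept their places.

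Summed over the 8 members, expression was 828 and 812 FPKM in the WT libraries and 1213 and 1259 FPKM in the R111A libraries. Both R111A sums lay above both WT sums, by a ratio of means of 1.51 (1.2 with TPM). An exact permutation test of the log2 sum (two-sided) gave p = 0.33, the smallest p that 2 against 2 libraries allow.

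Shares within this sum do not depend on how a library is scaled. Gimap3 made up 30.3% and 28.2% of the family in WT and 15.8% and 16.2% in R111A. Gimap6 made up 25.5% and 26.7% in WT and 36.0% and 39.8% in R111A. The main member was thus Gimap3 in both WT libraries and Gimap6 in both R111A libraries. Gimap4 made up 12.4% and 11.9% in WT and 19.5% and 15.8% in R111A, and Gimap7 was at 1.34% and 1.30% in WT and 0.487% and 0.528% in R111A. For these 4 members and Gimap1 the groups did not overlap, and the exact permutation p was again 0.33 (two-sided). The shares are computed from the levels above, so this separation restates those levels and adds no further support. The shares of Gimap5, Gimap8 and Gimap9 differed by 0.19, -0.10 and -0.39 percentage points between the group means and overlapped between the groups.

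**Figure D3:**
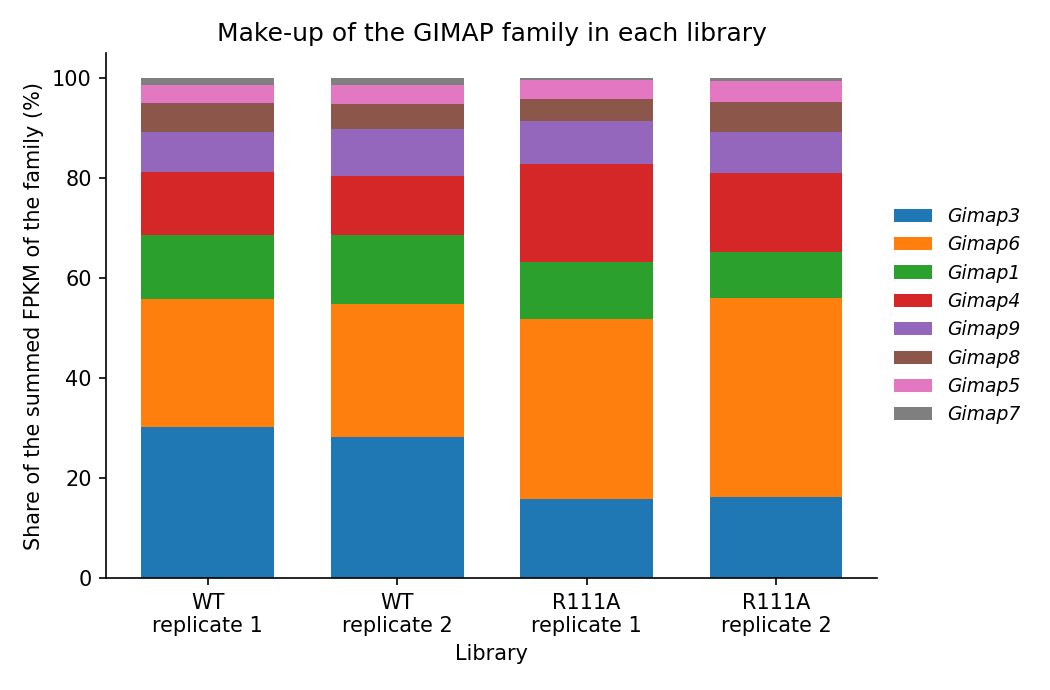
Share of each member in the summed FPKM of the family (percent) in each of the 4 libraries. Gimap3 took 30.3% and 28.2% of the WT bars and 15.8% and 16.2% of the R111A bars, while Gimap6 took 36.0% and 39.8% of the latter.

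Ratios between members are also left unchanged by a library's scale. Gimap6 was at 0.84 and 0.94 times Gimap3 in WT and at 2.28 and 2.46 times Gimap3 in R111A, so their order turned. Gimap4 stayed above Gimap7, at 9.31 and 9.20 times its level in WT and at 40.0 and 30.0 times in R111A. Both ratios were higher in both R111A libraries, with no overlap (exact permutation p = 0.33, two-sided). Each divides a member that was higher in both R111A libraries by one that was lower, so this separation follows from the values above. Gimap6 was at 2.05 and 2.23 times Gimap4 in WT and at 1.85 and 2.51 times in R111A. That ratio overlapped between groups (exact permutation p = 1.0).

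The cluster spans 123666 bases of chromosome 6 in RefSeq (GRCm38.p6), in the order Gimap8, Gimap9, Gimap4, Gimap6, Gimap7, Gimap1, Gimap5 and Gimap3. The 8 nearest genes of the table on each side were mostly at low levels: 11 of 16 had a mean under 1 FPKM and none of these 11 exceeded 1.34 FPKM in any library. Of the 5 tested, 3 were lower by the adjusted p from limma (32.1% of all genes were) and 0 were higher (21.2%), also 0 at an unadjusted p under 0.05. With TPM 4 were lower (51.8% of all genes). One of the 3, Repin1, passed the filter only through its WT libraries, so it could hardly have been tested without being lower. Repin1, a zinc finger gene, was at 2.37 and 2.77 FPKM in the WT libraries against 0.82 and 0.53 FPKM in R111A. Both R111A libraries were lower, with a log2 fold change of -1.09 (adjusted p = 0.00051). Zfp775, the tested gene nearest to Gimap8, had a log2 fold change of -0.67, and Malsu1, a factor for mitochondrial ribosomes beyond the Gimap3 end, had one of -0.60. Both lost their calls without WT replicate 1, and Malsu1 also without WT replicate 2. Lrrc61 did not pass at -0.44 but was lower with TPM at -0.72. It was at -0.83 without R111A replicate 1 and at -0.06 without R111A replicate 2. Tra2a, a splicing regulator, did not pass at 0.12, which turned to -0.21 with TPM. It was at 0.40 without R111A replicate 1 and at -0.16 without R111A replicate 2. Of the 11 not tested, 3 are named after their values were seen. Gpnmb was at 0.03 and 0.02 FPKM in the WT libraries against 1.26 and 0.99 FPKM in R111A. Igf2bp3 was at 0.43 and 0.37 FPKM against 1.23 and 1.12 FPKM. Tmem176a went the other way, at 0.44 and 1.34 FPKM in the WT libraries against 0.08 and 0.43 FPKM in R111A.

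**Figure D4:**
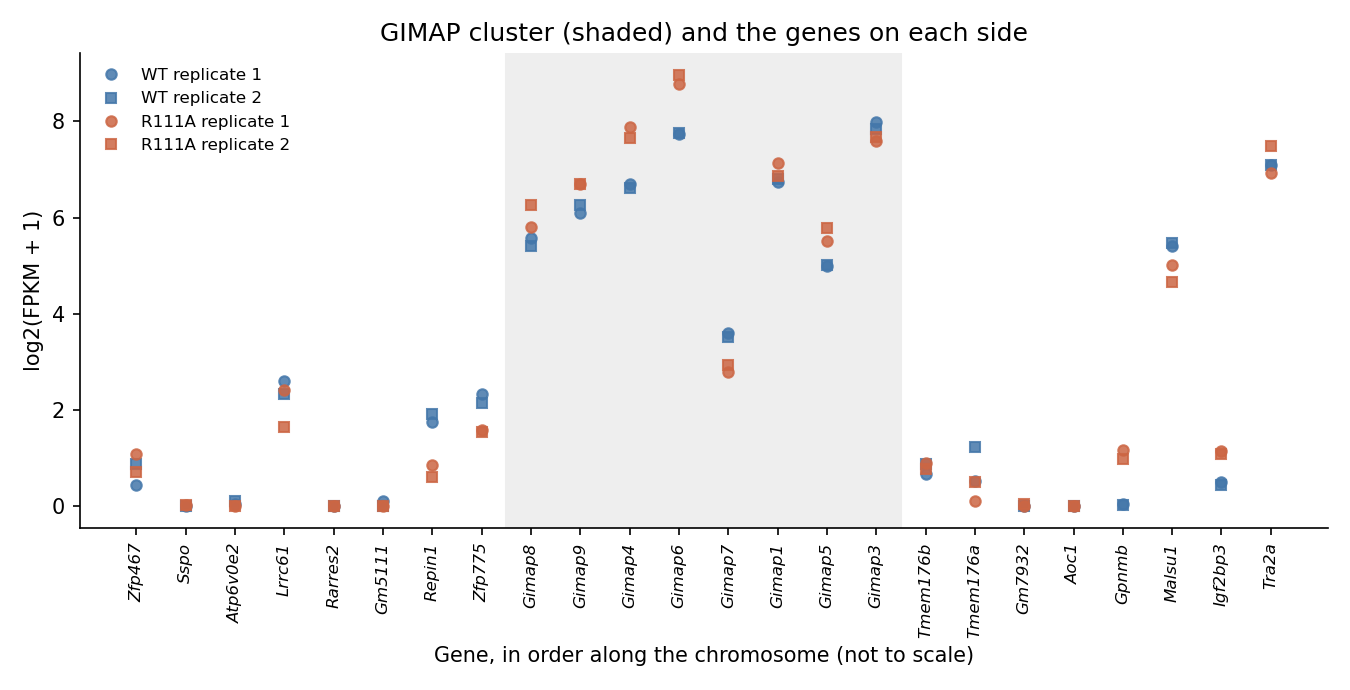
log2(FPKM + 1) of the 8 GIMAP genes (shaded) and of 8 genes on each side, in their order along the chromosome and not to scale, in WT (blue) and R111A (red) libraries (circles, replicate 1; squares, replicate 2). Apart from Malsu1 and Tra2a, no neighbour exceeded 5.11 FPKM in any library, under the lowest value of any member (5.91 FPKM, Gimap7).

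Proteins that work with GIMAP members or in the same processes were read from a list of 14 genes, all tested. By the adjusted p, 7 were higher and 2 lower (4 and 5 with TPM), where 21.2% and 32.1% of all genes were (13.6% and 51.8% with TPM), with a median log2 fold change of 0.43 (0.10 with TPM). With 1 library left out 4 to 8 were higher and 2 to 3 lower. Among the ubiquitin-like proteins of autophagy, Gabarap was at 107 and 112 FPKM in the WT libraries against 212 and 194 FPKM in R111A. Both R111A libraries were higher, with a log2 fold change of 0.88 (adjusted p = 0.00057; 0.55 with TPM). Gabarapl2 had a log2 fold change of 0.73 (adjusted p = 0.0013), Map1lc3b one of 0.77 (adjusted p = 0.0012) and Map1lc3a one of 1.0 (adjusted p = 0.00062), and all 3 stayed under an adjusted p of 0.05 with TPM. Gabarapl1 did not pass at 0.39, but was higher with median-of-ratios scaling (0.52), with quantile normalization (0.50) and without R111A replicate 1 (0.53).

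Of the Bcl-2 family, which controls apoptosis at mitochondria, the survival factor Bcl2l1 (Bcl-xL) was at 88.5 and 95.8 FPKM in the WT libraries against 24.8 and 18.9 FPKM in R111A. It fell in both R111A libraries, with a log2 fold change of -2.04 (adjusted p = 2.7e-05). The survival factors Bcl2 and Mcl1 and the death effector Bax were higher by the adjusted p in FPKM, at 0.66, 0.47 and 0.50, but not with TPM, at 0.35, 0.13 and 0.17. Without WT replicate 1 none of these 3 passed, and without WT replicate 2 Bcl2 and Mcl1 did not. Bak1 (-0.12), Bad (-0.42) and Bcl2l11 (0.13) did not pass the threshold, although Bak1 and Bad did with TPM (-0.44 and -0.72), where Bcl2l11 turned to -0.20. Bad was at -0.73 without R111A replicate 1 and at -0.11 without R111A replicate 2. Bak1 turned to 0.01 with median-of-ratios scaling. The chaperone Hspa8 was lower, at -1.10 (adjusted p = 0.00014), and the kinase Gsk3b, at -0.23, passed the threshold only with TPM, at -0.51.

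Members of 2 other families of GTPases were read beside the GIMAP genes. Of 6 septins tested, which build filaments, 0 were higher (also 0 at an unadjusted p under 0.05) and 3 were lower by the adjusted p (5 with TPM), beside 32.1% of all genes (51.8% with TPM), and their median log2 fold change was -0.37. Septin11 was at 65.5 and 58.9 FPKM in the WT libraries against 22.5 and 25.9 FPKM in R111A, with a log2 fold change of -1.33 (adjusted p = 0.00011). Septin2 and Septin1 were at -0.67 and -0.49 and lost their calls with no filter, with quantile normalization and without WT replicate 2, Septin1 also with median-of-ratios scaling and without WT replicate 1. With 1 library left out 0 to 1 septins were higher and 1 to 4 lower. Of 16 interferon-inducible GTPases tested, which act against intracellular pathogens, 13 were higher and 1 lower (11 and 1 with TPM), beside 21.2% and 32.1% of all genes (13.6% and 51.8% with TPM), and their median was 1.08. With 1 library left out 11 to 13 were higher and 0 to 1 lower. The largest changes were those of Gbp10 at 2.03, Gbp11 at 2.0 and Gbp8 at 1.98. Gbp10 was at 6.40 and 4.85 FPKM in the WT libraries against 25.7 and 26.1 FPKM in R111A (adjusted p = 2.7e-05).

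GIMAP genes are known to be expressed in resting T cells, so genes of resting and of activated T cells were set beside them. Of 23 genes of resting T cells, 12 were higher and 4 lower (11 and 8 with TPM), where 21.2% and 32.1% of all genes were (13.6% and 51.8% with TPM), and the median log2 fold change was 0.61. Il7r, the receptor chain for IL-7, was at 4.58 and 3.77 FPKM in the WT libraries against 43.6 and 37.5 FPKM in R111A, with a log2 fold change of 3.01 (adjusted p = 4.8e-06). S1pr1, which guides exit from lymphoid organs, and Btg2, which restrains proliferation, had log2 fold changes of 2.51 and 2.07. The 4 lower genes, named after their values were seen, were Dapl1 (-1.49), Slfn2 (-0.95), Ikzf1 (-0.77) and Bach2 (-0.56). Slfn2 was the most abundant of the list over all libraries but under Ccr7 in both R111A libraries (588 and 511 FPKM), at 756 and 778 FPKM in the WT libraries against 344 and 457 FPKM in R111A. Bach2 lost its call without WT replicate 1 and without WT replicate 2. Without R111A replicate 1, Foxp1, Satb1, Ets1 and Runx3 (also named after their values were seen) were lower too, so that with 1 library left out 3 to 8 genes were lower and 12 to 13 higher. Of 18 genes of activation, 7 were higher and 9 lower (6 and 11 with TPM), beside the same shares of all genes, with a median of -0.44. Of the 9 lower, Mki67 passed the filter only through WT. With 1 library left out 6 to 7 were higher and at least 8 lower. Tfrc, the transferrin receptor, was at 110.2 and 115 FPKM in the WT libraries against 23.1 and 39.0 FPKM in R111A, with a log2 fold change of -1.87 (adjusted p = 0.0002). The cytokine gene Il2 had the largest change of that list, at -4.56, while Nr4a1, an early gene of T cell receptor signalling, was higher, at 2.42.

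**Figure D5:**
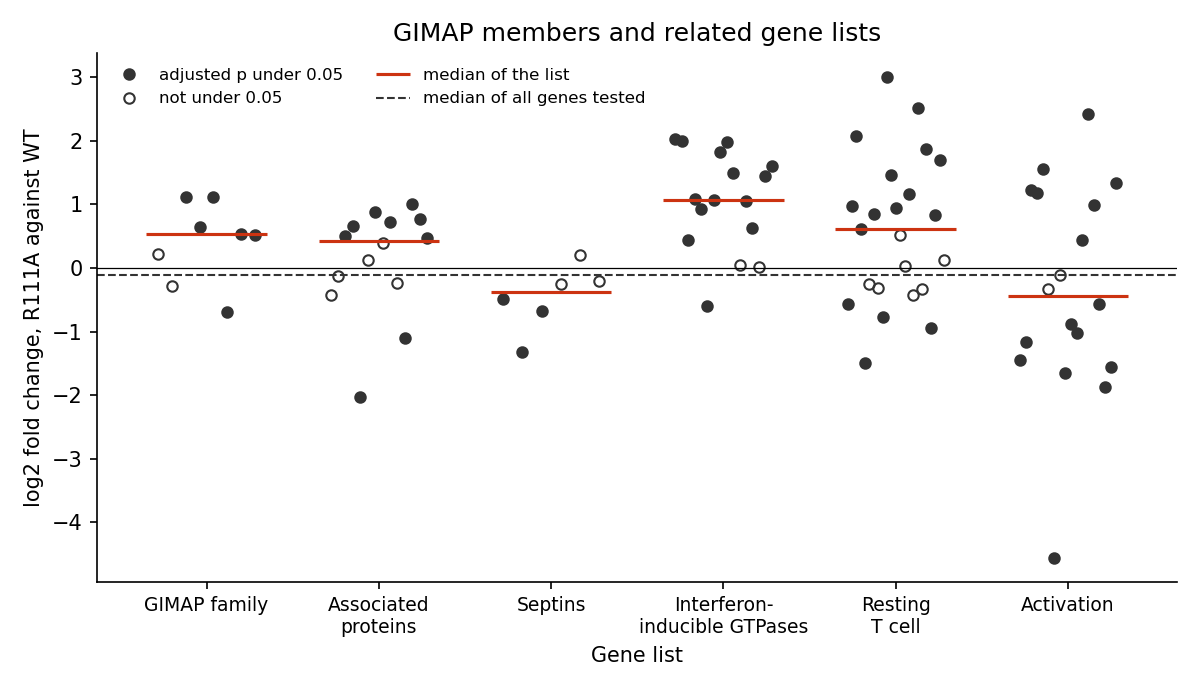
log2 fold change in R111A against WT of each tested gene in 6 lists, filled where the adjusted p was under 0.05, with a red line at each list's median and a dashed line at the median of all genes tested. Medians were 0.53 for the GIMAP family, 0.43 for associated proteins, -0.37 for septins, 1.08 for interferon-inducible GTPases, 0.61 for resting and -0.44 for activation genes.

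The genes outside the family closest to the mean GIMAP profile over the 4 libraries were Tspan14, Mbd1, Hspbap1, Gstt2 and Nrbp1, by Euclidean distance between centred log2 values. Their distances ran from 0.03 to 0.04. These genes were picked for matching a profile of the same 4 libraries. The direction and size of their changes were therefore set by the choice, and a p-value for them is no separate test. Gimap9 was the member nearest to that mean profile, at 0.19, and Gimap7 the farthest, at 1.10. Tspan14 was at 26.4 and 25.5 FPKM in the WT libraries against 33.3 and 36.2 FPKM in R111A, with a log2 fold change of 0.41 (adjusted p = 0.028), and 0.08 with TPM, where it did not pass, as it did not without WT replicate 1 or without WT replicate 2.

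Markers of other cells were mostly under the filter in WT. Cd79a, Cd79b, Lyz2, Hba-a1 and Eomes passed it only through R111A, so they could hardly have been tested without being higher, and these lists were counted with no filter, where 17.2% of 14448 genes were higher and 19.8% lower. B cells also express GIMAP genes: 8 B cell markers summed to 2.23 and 1.10 FPKM in the WT libraries against 5.33 and 4.61 FPKM in R111A. The most abundant of these over all libraries, Cd79a, was at 0.32 and 0.24 FPKM in the WT libraries against 2.99 and 2.37 FPKM in R111A, while Cd79b was at 1.15 and 0.24 FPKM against 1.51 and 1.71 FPKM, and Ms4a1 and Pax5 stayed under 0.5 FPKM in every library. With no filter Cd79a alone of the list passed, as higher. Of 8 endothelial markers 6 were in the table, and Cdh5, Kdr, Vwf and Cldn5 were at or near 0 in all 4 libraries. Of the 5 tested with no filter, Egfl7 alone was lower and Pecam1 alone higher. Pecam1, the most abundant of the list over all libraries but under Egfl7 in WT (6.92 and 5.53 FPKM), was at 5.71 and 4.95 FPKM in the WT libraries against 18.5 and 12.6 FPKM in R111A, and the list summed to 12.7, 10.5, 19.9 and 14.6 FPKM in the order of the libraries above.

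Of 12 myeloid markers 11 were tested with no filter, of which 4 were higher and 2 lower. Lyz2, the most abundant over all libraries but under Mpeg1 in WT, was at 0.45 and 0 FPKM in the WT libraries against 3.01 and 2.37 FPKM in R111A, and the list summed to 1.83, 2.0, 8.71 and 5.55 FPKM. Of the others that were higher, Fcgr3 was at 0.05 and 0.05 FPKM against 1.44 and 0.76 FPKM, Adgre1 at 0.04 and 0.04 FPKM against 0.77 and 1.04 FPKM, and Itgam at 0 and 0.03 FPKM against 0.54 and 0.39 FPKM. The 2 lower were Mpeg1, at 0.70 and 0.73 FPKM against 0.37 and 0.33 FPKM, and Siglech, at 0.20 and 0.26 FPKM against 0 and 0 FPKM. S100a9 was listed at 0 in every library and Csf1r stayed at or under 0.07 FPKM. Of 6 erythroid markers 4 were tested with no filter, and Hba-a1 alone passed. It was the most abundant, at 0.66 and 0.44 FPKM in the WT libraries against 12.3 and 11.7 FPKM in R111A. That list summed to 0.66, 0.70, 12.9 and 13.0 FPKM, with Hbb-bs and Slc4a1 listed at 0 throughout. Of 6 NK cell markers 4 were higher with no filter and 1 lower. The lower one was Nkg7, the most abundant over all libraries, at 19.3 and 22.8 FPKM in the WT libraries against 4.43 and 4.14 FPKM in R111A. Eomes was at 0.88 and 0.80 FPKM against 6.68 and 4.32 FPKM, and Klrk1, Klra8 and Klrb1c, also higher, stayed under 0.8 FPKM in every library. The list summed to 20.4, 23.8, 12.3 and 9.77 FPKM, mostly from Nkg7 in WT, and Ncr1 stayed at or under 0.3 FPKM.

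Regulatory T cell markers (6 of 6 tested, 1 higher and 2 lower, or 0 and 5 with TPM, where 21.2% and 32.1% or 13.6% and 51.8% of all genes were, and 0 to 1 and 2 to 4 with 1 library left out) summed to 221, 222, 178 and 194 FPKM, mostly from Il2ra. Foxp3, which defines these cells, was at 11.3 and 8.78 FPKM in the WT libraries against 2.86 and 1.86 FPKM in R111A, with a log2 fold change of -1.72 (adjusted p = 0.00015). Ctla4 was the other lower gene, at -1.90, and Nt5e was the higher one, at 0.64. Il2ra (-0.11), Ikzf2 (-0.35) and Nrp1 (-0.33) did not pass. For cell sorting the methods give bead enrichment of splenic CD4+ T cells. After the GFP gate they give a further sort into regulatory and conventional T cells. The titles of these libraries name CD4+ T cells only. The part of these other cells, or of the share of regulatory T cells, in the GIMAP values was not tested.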

How the data were processed

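RNA-seq of 2 WT and 2 R111A libraries of CD4+ T cells was analysed. The authors selected polyA RNA, aligned filtered reads to mm10 with Bowtie2 (2.4.4) and estimated expression with RSEM (1.2.28), and they deposited FPKM values for 16142 genes. The study called genes with DESeq2 from counts, which was not repeated here.

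For testing, log2(FPKM + 1) values of the 9831 genes whose mean reached 1 FPKM were fitted in R (4.3.3) by limma (3.58.1; lmFit, then eBayes with a trend), and p-values were adjusted over all of them by Benjamini-Hochberg. The pseudocount of 1 FPKM understates changes of low genes. The procedure was tested on simulated data. Single values were compared by exact permutation tests in scipy (1.17.1). Sequences and coordinates came from RefSeq (GRCm38.p6) and GENCODE M21.

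The genes named were all members, Zc3h12a, all tested associated and flanking genes (8 table rows on each side), the 3 largest changes among the tested genes of each other list, the 5 nearest profiles (mean level 5 FPKM or more) and any marker. Members and lists were chosen with earlier results of these data known.

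Alternatives were pseudocounts of 0.1 and 5 FPKM, no filter or one at 5 FPKM, TPM, median-of-ratios and quantile scaling, a replicate block, eBayes without trend, no fold threshold and each library left out. Ranges of p over the alternatives leave out the block.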

Additional observations from a re-analysis of the deposited data

How the results depend on the processing

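For the members' log2 fold changes there were 104 values over the 13 alternatives that apply to them. Of these values, 88 kept their direction and their side of the adjusted p threshold. Gimap4 and Gimap6 did so under all 13. Where values did not, the cause was not tested. With no filter, the filter at 5 FPKM, the replicate block and eBayes without trend, the log2 fold change is unchanged by construction (1.13 for Gimap6). Those settings test only the adjusted p. Gimap1 and Gimap3 were counted as kept where they stayed short of the threshold. Gimap3 did so with quantile normalization, at -0.06 (adjusted p = 0.72).

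With TPM, 0 members were called higher and 1 lower (2 and 2 by the adjusted p alone), with log2 fold changes of -0.10 for Gimap1 (reversed, not significant), -0.61 for Gimap3 (now past the threshold), and 0.31, 0.21 and 0.19 for Gimap5, Gimap8 and Gimap9 (no longer past it). The family median was then 0.20, against 0.67 with median-of-ratios scaling and 0.75 with quantile normalization, where Gimap1 was at 0.45 and past the threshold. Over all genes, 1749 were called lower with TPM, 386 higher and 402 lower with a pseudocount of 5 FPKM, 521 higher with a filter at 5 FPKM (fewer genes were tested), and 2088 higher and 3152 lower with no fold threshold, where 5 members were called higher and 1 lower. With no filter Gimap8 kept its log2 fold change of 0.54 but not its call.

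Leaving out each library in turn leaves 1 library in a group, which is assumed to vary like the other group. Then 1 to 2 members were called higher, 2 to 6 were higher and 0 to 2 lower by the adjusted p alone, and the median ran from 0.43 to 0.64. The log2 fold changes ran from 0.10 to 0.36 for Gimap1, -0.34 to -0.21 for Gimap3, 0.50 to 0.78 for Gimap5, -0.77 to -0.62 for Gimap7, 0.31 to 0.77 for Gimap8 and 0.45 to 0.60 for Gimap9.

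The replicate block gave 2 members called higher and 0 lower, and 841 genes higher and 821 lower. The labels give a shared number only, and do not say whether same-numbered libraries were handled together. The correlation of the deviations of same-numbered libraries over 9831 genes was 0.11, which cannot decide whether they were paired. The sum kept its direction under TPM and median-of-ratios scaling, but 2 against 2 libraries cannot pass a threshold of 0.05. Without counts, the reads behind low values such as those of Gimap7 are unknown.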
